A study of Mus musculus with 16 samples.

Results

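The 10 genes described here encode enzymes, droplet proteins and a regulator that sebocytes, the lipid-filled cells of the sebaceous gland, use to make and store wax esters, cholesteryl esters and triglycerides. They are Far1, Far2, Awat1, Awat2, Soat1, Dgat1, Dgat2, Cidea, Plin2 and Pparg. They were found as the rows of the deposited tables whose Ensembl identifier carries one of these symbols, and each symbol gave 1 row in each table, which makes 10 of 55357 rows in the table of whole skin and 10 of 56953 in the table of sorted cells. The study, on C57BL/6 mice, set a Control genotype against one labelled GRK2 eKO. GRK2 is a kinase that phosphorylates activated G-protein-coupled receptors; the labels do not spell out eKO, and the driver of the deletion and its cell type are not given in the sources used here. Total RNA of back skin from animals labelled 8 months old was measured in 5 Control and 5 eKO libraries. Hair follicle stem cells (HFSC), sorted as CD34+ α6-integrin+ bulge cells, were measured in 3 Control and 3 eKO libraries; their labels give 18 months and the design text of the series 8 months, so their age is not settled. The labels do not say that the replicates of a group are separate animals, and p-values measure only the spread between these libraries.

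Sebum leaves the gland when a mature sebocyte bursts and releases its lipid. Fatty acyl-CoA reductases turn activated fatty acids into fatty alcohols, which wax synthases join to a second acyl chain to give wax esters. Acyl chains are also joined to cholesterol and to diacylglycerol, and the resulting neutral lipids collect in cytoplasmic droplets whose size and turnover are set by coat proteins. PPARG, a nuclear receptor, drives the differentiation of both sebocytes and adipocytes, so several of these genes are also expressed in the fat of the skin.

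The promoters of 3 genes are shown because the results below turn on them: Far2 and Soat1, whose eKO libraries lay above all Control libraries in both tissues, and Awat1, the wax synthase that was close to absent from HFSC. The eKO libraries of Cidea also lay above all Control libraries in both tissues, but no promoter window was available for it. Each of the 3 promoters is the strand of the gene over the 250 bases before its transcription start, from RefSeq on build GRCm38.p6, and is the stretch directly upstream of the annotated gene.
Far2 (chr6:148047166-148047415, + strand): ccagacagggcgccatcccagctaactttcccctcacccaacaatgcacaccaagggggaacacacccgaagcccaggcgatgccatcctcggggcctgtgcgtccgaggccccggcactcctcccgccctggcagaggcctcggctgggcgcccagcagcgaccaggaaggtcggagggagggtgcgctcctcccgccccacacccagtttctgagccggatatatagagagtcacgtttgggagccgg
Soat1 (chr1:156474329-156474578, - strand): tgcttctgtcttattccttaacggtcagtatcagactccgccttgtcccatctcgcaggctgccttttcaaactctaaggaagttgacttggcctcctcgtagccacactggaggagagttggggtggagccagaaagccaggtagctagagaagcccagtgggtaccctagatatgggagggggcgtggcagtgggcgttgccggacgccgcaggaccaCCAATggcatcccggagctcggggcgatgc
Awat1 (chrX:100571997-100572246, + strand): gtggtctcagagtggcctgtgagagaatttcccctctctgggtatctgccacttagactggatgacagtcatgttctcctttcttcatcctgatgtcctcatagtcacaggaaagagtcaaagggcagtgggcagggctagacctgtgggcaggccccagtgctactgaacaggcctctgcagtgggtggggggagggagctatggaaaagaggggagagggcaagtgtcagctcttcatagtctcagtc
Capitals mark the single match in these 3 windows to the motifs as spelled here, a CCAAT box at bases -30 to -26 of Soat1. That motif was held by 33.8% of the 32851 promoter windows of the same length in the table. Also searched on both strands were the DR1 element AGGTCANAGGTCA, which PPARG binds with its RXR partner (0.0335% of all windows), its half-site AGGTCA (14.02%), the sterol response element TCACNCCAC (1.05%) and the TATA box TATAAA (12.4%). The DR1 element contains the half-site. Only these exact letters were searched, so variants, such as tatata in the Far2 window, were not counted. The Far2 window was 67.2% G and C, that of Soat1 58.8% and that of Awat1 54.8%. In all, 7 of the 10 genes had 10 windows in the table; the half-site was also in the window of Plin2 and in 2 of the 3 windows of Pparg, and the DR1 and sterol elements, as spelled here, were in none of the 10.

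Values are the authors' normalised read counts, which were scaled separately in each tissue and are not compared between the tables. Every value was a whole multiple of the smallest step of its column, taken as 1 read, and these reads summed to 11.6 to 14.2 M per Control and 8.21 to 16.4 M per eKO library in skin, M standing for the SI prefix mega. The corresponding sums in HFSC were 6.43 to 6.73 M and 6.43 to 9.39 M. Grk2, the targeted gene, read 1099.7 to 1492 in Control and 979.7 to 1224 in eKO skin (log2 fold change -0.22, limma adjusted p = 0.343), and 121 to 144 against 104 to 122 in HFSC (-0.24, adjusted p = 0.501). The genotype groups overlapped for Grk2 in both tissues, and the part of the gene that was removed is not given in the sources used here. Bulge markers were abundant in every HFSC library (8 genes, summed to 133794 to 156957). Y-linked genes (4 genes, summed) were at 1.90 in skin Control replicate 5 and 0.642 in skin eKO replicate 3 but at 2297 to 2762 in the other 8 skin libraries, and in HFSC at 2340 to 2476 in Control and 704 to 831 in eKO.

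In whole skin, all 10 genes had a higher mean level in eKO than in Control on the log2 scale, but only Far2 and Cidea passed the test. Far2, which makes the alcohol moiety of wax esters, rose 2.59-fold, and Cidea, which makes lipid droplets fuse and grow, rose 2.96-fold. Soat1, the cholesteryl ester synthase, had no Control library as high as any eKO library but missed the threshold. The triglyceride synthases and Far1 had the smallest differences. The test was limma on log2(value + 1), adjusted by the Benjamini-Hochberg procedure over 16589 genes; it called 2 of the 10 genes, both higher, beside 0.374% of all genes tested (0.229% higher and 0.145% lower). The median log2 fold change of the 10 genes was 0.89, against 5.9e-05 over all genes tested. An unadjusted p under 0.05 was reached by 8 of the 10, beside 14.2% of all genes tested. The eKO libraries lay above all Control libraries for 3 of the 10, Far2, Soat1 and Cidea, beside 1.74% of all genes tested.

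**Figure D1:**
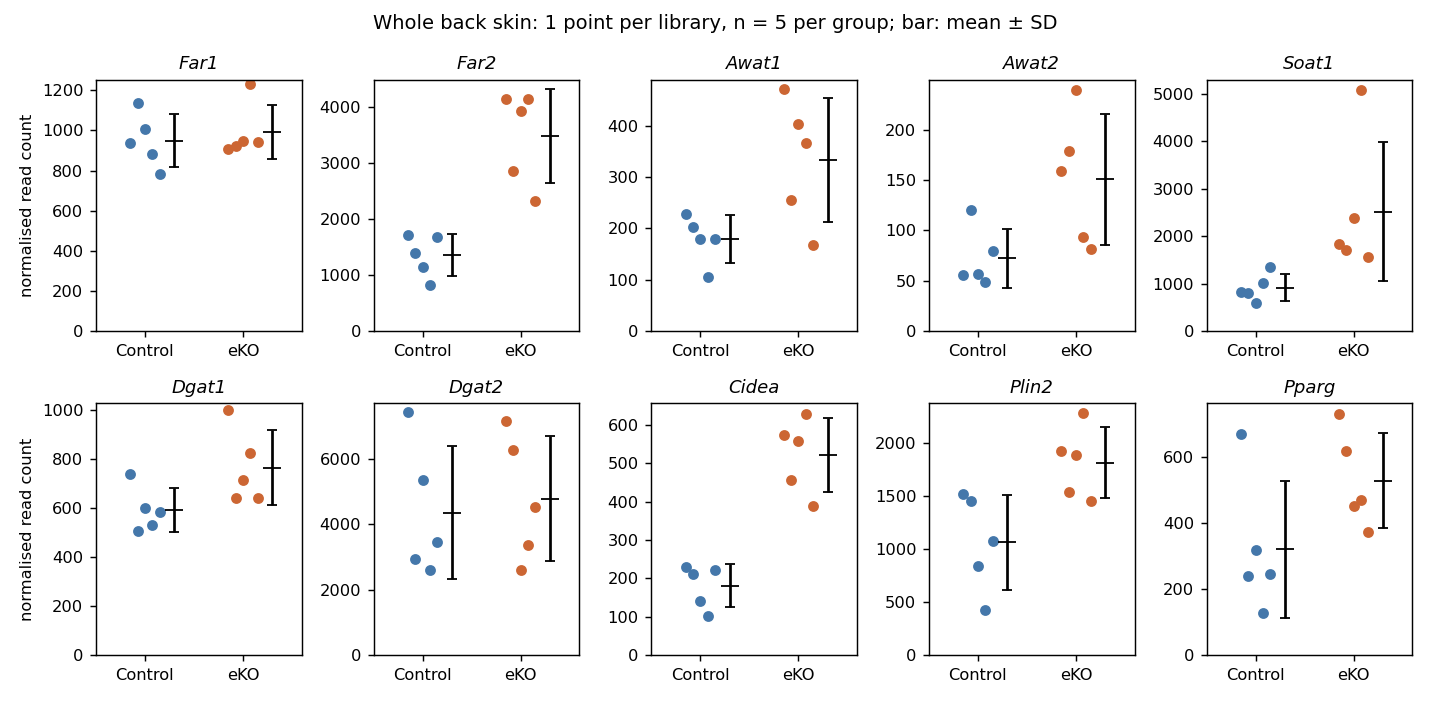
Normalised read count (vertical axes, each from 0, separate scale per gene) of the 10 genes in whole back skin, 1 point per library, with the mean and SD of 5 Control (blue) and 5 eKO (orange) libraries beside the points. The eKO points of Far2, Soat1 and Cidea lie above every Control point, and the groups overlap for the other 7 genes.

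Far1 and Far2 encode the fatty acyl-CoA reductases, of which FAR1 is widely expressed and also serves ether lipid synthesis. Far2 read 1722, 1393, 1152, 829 and 1689.9 in Control replicates 1 to 5 and 4140.4, 2862, 3937, 4139.6 and 2331 in eKO replicates 1 to 5. The lowest eKO library was thus above the highest Control library, and the log2 fold change was 1.37 ± 0.23 (SE, adjusted p = 0.0420). Far1 read 936, 1135, 1005, 885 and 783 in Control and 909, 925, 948, 1230.1 and 945 in eKO skin. Its groups overlapped almost fully, with 1 eKO library, replicate 4, above the rest, and its log2 fold change was 0.07 ± 0.12 (adjusted p = 0.843), with a 95% interval from -0.20 to 0.33.

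Awat1 and Awat2 encode acyl-CoA wax alcohol acyltransferases, the enzymes that close the wax ester; both genes lie on the X chromosome. Awat1 read 229, 203, 179.6, 105 and 179.6 in Control and 471, 256, 403, 367 and 168 in eKO skin. All eKO libraries but replicate 5 were above every Control library, and the log2 fold change of 0.85 ± 0.29 did not pass (adjusted p = 0.224). Awat2, the least abundant of the 10 per kilobase, was at 55.8, 121, 56.4, 48.5 and 79.8 in Control and 159, 179, 239.5, 93.6 and 81.9 in eKO skin. Its groups overlapped through Control replicate 2, and its log2 fold change of 1.02 ± 0.34 did not pass (adjusted p = 0.207).

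Soat1 encodes the sterol O-acyltransferase that esterifies cholesterol. It read 836, 795, 594, 1023 and 1347 in Control and 1838, 1706, 2389, 5075 and 1568 in eKO skin. The groups did not overlap, and eKO replicate 4 stood far above the other eKO libraries. The log2 fold change was 1.35 ± 0.32 (adjusted p = 0.105). Of 19 alternative settings only DESeq2 on the recovered reads called it (1.45, adjusted p = 0.00263). The 18 that did not include edgeR on the same reads and all 10 fits that left out 1 library.

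Dgat1 and Dgat2 encode the diacylglycerol acyltransferases that complete triglycerides. Dgat1 read 741, 506, 603, 529 and 584 in Control and 1003, 641, 713, 827 and 642 in eKO skin (log2 fold change 0.36 ± 0.15, adjusted p = 0.300). Dgat2 read 7454, 2930.0, 5356, 2610.1 and 3459 in Control and 7163, 6275, 2614, 3377 and 4538 in eKO skin. Both pairs of groups overlapped, and for Dgat2 the spread within each group exceeded the difference (0.15 ± 0.34, adjusted p = 0.875), with a 95% interval from -0.61 to 0.91; its sign turned to -0.02 without eKO replicate 1.

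Cidea and Plin2 encode droplet proteins; PLIN2 coats droplets in most cell types. Cidea read 229, 211, 142, 102 and 222 in Control and 574, 457, 558, 630.0 and 389 in eKO skin. The groups were well separated (log2 fold change 1.57 ± 0.24, adjusted p = 0.0308). Plin2 read 1512, 1452, 835, 424 and 1074 in Control and 1918, 1534, 1881, 2277 and 1449 in eKO skin. The eKO libraries overlapped the Control libraries only at 1449, below Control replicates 1 and 2, and the log2 fold change was 0.89 ± 0.31 (adjusted p = 0.231).

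Pparg read 672, 239, 319, 126 and 245 in Control and 732, 617, 453, 469 and 374 in eKO skin. All eKO libraries were above 4 of the 5 Control libraries and only replicate 1 was above Control replicate 1; the log2 fold change of 0.90 ± 0.37 did not pass (adjusted p = 0.304).

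The 2 calls in skin depended on the libraries. Without any 1 of the libraries other than Control replicate 4, Far2 was no longer called (log2 fold change 1.21 to 1.51 over the 10 fits, adjusted p up to 0.115), and Cidea was not called without Control replicate 2 or 3 or eKO replicate 1, 3, 4 or 5 (1.38 to 1.67, adjusted p up to 0.0989). Without both libraries low in Y-linked genes, limma called 0 genes of the whole table, with 1790 at an unadjusted p under 0.05; there Far2 was at 1.41 (adjusted p = 0.141) and Cidea at 1.63 (adjusted p = 0.111). No other tool was run without them.

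Marker sums of skin cell types were also compared between the genotypes. Sebaceous gland markers that are not among the 10 genes (9 genes) summed to 20224.5 to 69336 in Control and 55267 to 91441 in eKO skin, with overlap. Of the 9, 8 had a higher mean in eKO and none was at 0. Scd1, a gene of sebocytes and fat, had a mean of 26881 in Control and 43230 in eKO. Without Scd1 the other 8 genes summed to 11226 to 16905 in Control and 23811 to 38950 in eKO, without overlap. Markers of infundibulum and isthmus, the upper follicle next to the gland (6 genes, Plet1 listed at 0 in all libraries), summed to 10338 to 16242 in Control and 25568 to 47152 in eKO skin without overlap. Krt79, which is also in the sebaceous list, had a mean of 6223 in Control and 20395 in eKO; without it the other 5 genes summed to 5712 to 7100 against 9775 to 20350 (Cst6 mean 3763 against 12929, Lgr6 1088 against 694). These single genes were picked from the lists after their values were seen. Adipocyte markers (12 genes, Lipe listed at 0 in all libraries) summed to 11455 to 80539 in Control and 13002 to 75643 in eKO skin, with overlap. Fibroblast markers (6 genes, 6 with a higher mean in eKO) summed to 40042 to 367898 in Control and 52984 to 250335 in eKO, with overlap. Those of differentiated epidermis (7 genes, 7 higher) summed to 121527 to 190344 and 149535 to 435369, with overlap. Those of the bulge (8 genes, 5 higher) summed to 20766 to 40188 and 17020 to 27415, with overlap. In bulk RNA, more cells of a type and more RNA per cell cannot be told apart, and the part of these cell types in the differences was not tested.

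Within a genotype, the 10 genes tended to be high or low in the same libraries. Control replicate 1 was the highest Control library for 7 of the 10 genes and Control replicate 4 the lowest for 7, while eKO replicate 5 was the lowest eKO library for 7. Control replicate 1 also had the largest adipocyte sum of all skin libraries (80539) and Control replicate 4 the smallest (11455). The same 2 libraries had the largest and smallest sebaceous sums among the Controls (69336 and 20224.5) and the lowest and highest score for hair matrix and shaft genes of all skin libraries (mean log2 level 1.86 and 12.2). With that score as a covariate, Far2 (1.36, adjusted p = 0.0346) and Cidea (1.54, adjusted p = 0.0231) stayed called and Soat1 was at 1.40 (adjusted p = 0.0549). Awat1, Cidea, Dgat2, Far2, Plin2 and Pparg were each lowest among Controls in replicate 4 and highest in replicate 1. For eKO replicate 5 the adipocyte sum was the median of its group (44724) and the sebaceous sum was 73823. The lowest eKO sebaceous sum (55267) was in replicate 2, which was the lowest eKO library for 1 of the 10 genes. In eKO replicate 3, which had the smallest adipocyte sum of its group (13002) beside a sebaceous sum of 82051, Dgat2 was the lowest of the group (2614) while Awat2 was the highest (239.5). That library was also low in Y-linked genes (0.642) and Awat2 is X-linked. In Control replicate 5, the other skin library low in Y-linked genes (1.90), Awat2 was at 79.8, below Control replicate 2 (121). Awat1, also X-linked, was at 403 in eKO replicate 3, below eKO replicate 1 (471). The part of neither the cell types nor the Y-linked difference in these levels was tested.

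In HFSC, the enzymes did not move together. Soat1 was 8.49-fold higher in eKO, Far2 3.06-fold and Plin2 1.55-fold, whereas the wax synthases were at 26.9 or less in every library and the triglyceride synthases had slightly lower means in eKO. Of the 10 genes, 8 passed the filter of a value of 10 in 3 libraries, and Awat1 and Pparg did not. The test called 4 of the 8 higher and 0 lower, beside 19.4% of 13784 genes tested (10.7% higher and 8.74% lower). Cidea passed the filter only through its eKO libraries and Awat2 only with its Control libraries, which leaves 3 called of the 6 genes above the limit in both genotypes. The median log2 fold change of the 8 was 0.50, against -0.03 over all genes tested.

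**Figure D2:**
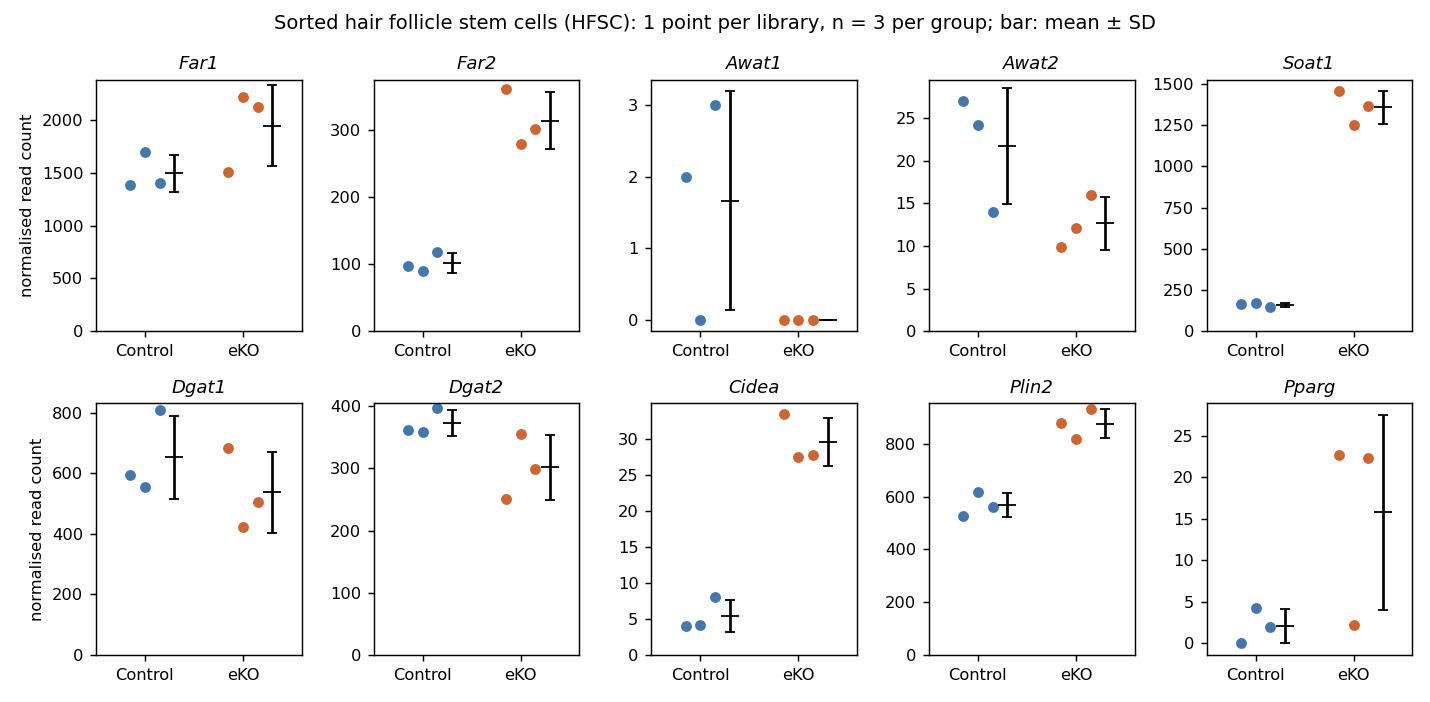
Normalised read count (vertical axes from 0, or just below it where a library is at 0, separate scale per gene) of the 10 genes in sorted HFSC, 1 point per library, with the mean and SD of 3 Control (blue) and 3 eKO (orange) libraries. The eKO points of Far2, Soat1, Cidea and Plin2 lie above every Control point, those of Dgat2 lie below every Control point, and Awat1 is at 0 in all 3 eKO libraries.

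Far2 read 96.7, 90.5 and 119 in the Control libraries of HFSC and 362, 279.5 and 301 in the eKO libraries. The groups did not overlap (log2 fold change 1.61 ± 0.21, adjusted p = 1.81e-04), as for 36.3% of all genes tested, 18.9% with eKO above. Far1, far more abundant than Far2 per kilobase as well, was at 1387, 1699.9 and 1405 in Control and 1509, 2215 and 2122 in eKO, and its groups overlapped. Its log2 fold change of 0.37 ± 0.14 did not pass (adjusted p = 0.0918), although it passed without eKO replicate 1 (0.54, adjusted p = 0.00505).

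Awat1 was at 1.99, 0 and 3.00 in Control HFSC and at 0 in all 3 eKO libraries, where a count of 0 allows a value of up to 2.27 to 3.29. Both genotypes were at or under 3 reads per library, so no fold is given. Awat2 read 26.9, 24.2 and 13.997 in Control and 9.86, 12.1 and 15.98 in eKO, with overlapping groups. Its log2 fold change was -0.71 ± 0.58 (adjusted p = 0.427), with a 95% interval from -1.96 to 0.54. Both wax synthase genes are X-linked, and the Y-linked sum differed between the HFSC genotypes as given above; its part in these levels was not tested.

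Soat1 read 163, 169 and 145 in Control HFSC and 1456, 1252 and 1365 in eKO. The libraries within each genotype lay close together and the groups far apart, with a log2 fold change of 3.09 ± 0.14 (adjusted p = 3.16e-08). The 95% interval of the fold was 6.89 to 10.48, and the p-value of Soat1 was the 6th smallest of the whole table.

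Dgat1 read 593, 554 and 809.8 in Control and 684, 421 and 506 in eKO HFSC, with overlap (log2 fold change -0.29 ± 0.19, adjusted p = 0.319). Dgat2 read 362, 359 and 397 in Control and 250.2, 355 and 299 in eKO. All eKO libraries of Dgat2 were below the Controls, with eKO replicate 2 (355) just under the lowest Control (359), as for 17.4% of all genes tested, and the log2 fold change was -0.32 ± 0.17 (adjusted p = 0.218).

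Plin2 read 526, 616 and 559.9 in Control and 880.2, 819 and 929.9 in eKO HFSC. The groups did not overlap, and the log2 fold change was 0.63 ± 0.12 (adjusted p = 0.00334). Cidea was a low transcript here, at 3.99, 4.21 and 8.00 in Control and 33.4, 27.4 and 27.7 in eKO. The groups did not overlap (2.30 ± 0.63, adjusted p = 0.0218; the added 1 shrinks the fold of so low a transcript). The call of Cidea was lost without Control replicate 1 (adjusted p = 0.0736), Control replicate 2 (0.0687) or eKO replicate 1 (0.0544), whereas Far2, Soat1 and Plin2 stayed called in all 6 fits that left out 1 library. Pparg, the regulator, read 0, 4.21 and 2.00 in Control and 22.7, 2.19 and 22.4 in eKO; eKO replicate 2 lay within the Control range, and the gene was not tested.

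Markers of several other cell types differed between the HFSC genotypes without overlap. Sebaceous gland markers (9 genes) summed to 3274 to 3384 in Control and 12285 to 13322 in eKO, with 7 of 9 higher and none at 0. Sums were also higher in eKO for differentiated epidermis (7 genes, none at 0; 2531 to 4360 against 16698 to 17502), infundibulum and isthmus (6 genes, Plet1 listed at 0; 2781 to 2977 against 4640.1 to 5517) and hair matrix and shaft (11 genes, Krt34 and Krt81 at 0 in all libraries; 509.6 to 589 against 1962 to 2265). In the infundibulum and isthmus list Krt79, which is also one of the 9 sebaceous markers, had a mean of 162 in Control and 2205 in eKO; without it the other 5 genes overlapped, at 2652 to 2794 against 2679 to 3039, and Lgr6 had a lower mean in eKO (1969 against 1493). The endothelial sum (9 genes) was 54.9 to 70.5 in Control and 1191 to 1357 in eKO, with Emcn and Vwf at 0 in all Control libraries and Egfl7 at 0 in all eKO libraries. The leukocyte sum (8 genes, Itgam listed at 0 in all libraries and Adgre1 at 0 in eKO) was 167 to 219.8 against 861 to 1541. Cd74, an antigen-presentation gene, had a mean of 139 in Control and 1075 in eKO; without it the other 7 leukocyte genes summed to 44.9 to 62.1 against 32.0 to 99.3, with overlap. The bulge sum was lower in eKO than in Control (153612 to 156957 against 133794 to 152734). Adipocyte markers (12 genes) summed to 36.9 to 61.0 in Control and 91.0 to 117 in eKO. Adipoq, Cfd, Cidec, Retn and Lipe were at 0 in all 6 libraries, and Lipe was at 0 in all skin libraries too. Plin1 was at 0 in all Controls and Plin4 at 0 in all eKO libraries. Fabp4 had a mean of 5.87 in Control and 48.2 in eKO. Without Fabp4 the other 11 adipocyte genes summed to 36.9 to 48.4 against 28.1 to 68.0, with overlap. The part of the other cell types in the differences of Soat1, Far2, Plin2 and Cidea was not tested.

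The genotype differences were then compared between tissues as a difference of log2 fold changes in 1 limma model over all 16 libraries, for the 8 genes tested in both. Soat1 was the only one of the 8 whose difference was called: its log2 fold change was larger in HFSC than in skin by 1.73 ± 0.43 (adjusted p = 0.0264), beside 5.62% of 13227 genes called. That call was lost without HFSC Control replicate 1, 2 or 3 or HFSC eKO replicate 1 (adjusted p up to 0.0602, difference 1.58 to 2.02 over the 16 fits). Awat2 had a positive sign in skin and a negative one in HFSC, a difference of -1.73 ± 0.54 (adjusted p = 0.0709), which passed without skin Control replicate 2 (adjusted p = 0.0433). The differences of Far2 (0.24 ± 0.33, 95% interval -0.45 to 0.93) and Cidea (0.74 ± 0.40, -0.11 to 1.58) did not pass, nor did those of Dgat1 (-0.65 ± 0.26, adjusted p = 0.166), Dgat2, Far1 and Plin2. Far2 and Cidea were called higher in both tissues, as were 0.136% of the genes tested in both; Cidea was tested in HFSC only because its eKO libraries passed the filter, which leaves Far2.

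**Figure D3:**
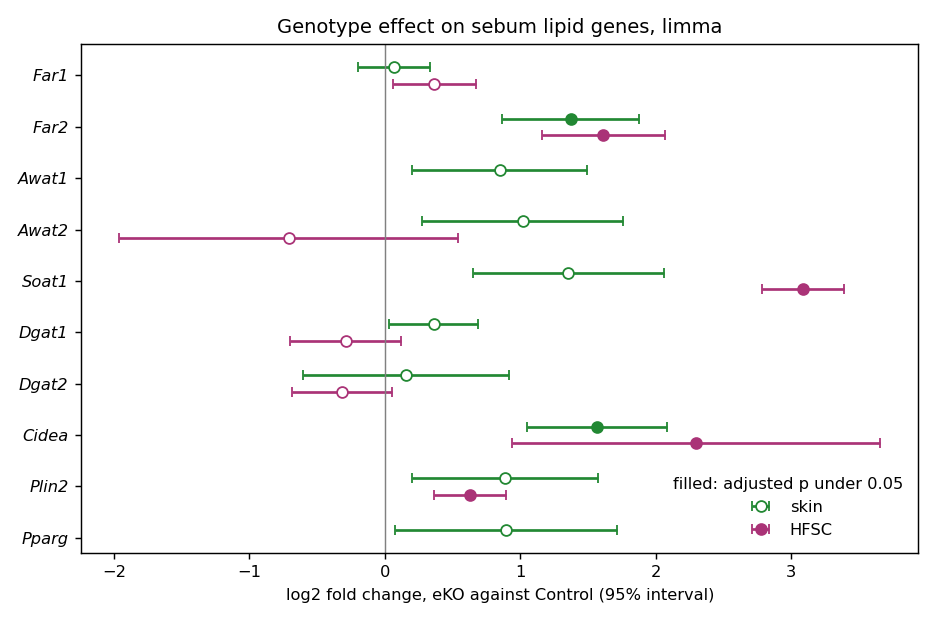
Log2 fold change of eKO against Control on the log2(value + 1) scale (horizontal axis, with 95% interval from limma) for the 10 genes in skin (green, n = 5 per group) and HFSC (purple, n = 3 per group); filled points passed the adjusted threshold of 0.05. Soat1 lies at 1.35 in skin and 3.09 in HFSC, Awat2 at 1.02 and -0.71, and Awat1 and Pparg have no HFSC value because they did not pass the filter.

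Paired enzymes were also compared within each library. The ratios printed are of the values themselves, and the log2 ratios and tests are of value + 1, so that the scaling of a library cancels apart from the added 1; with 5 added in its place, the HFSC log2 difference of Far2 to Far1 given below was 1.21. The Far2 to Far1 ratio was 1.84, 1.23, 1.15, 0.937 and 2.16 in Control skin and 4.55, 3.10, 4.15, 3.37 and 2.47 in eKO skin. Every eKO library was thus above every Control library. The log2 ratio averaged 0.48 ± 0.50 for the 5 Controls and 1.78 ± 0.35 for the 5 eKO libraries (SD), a difference of 1.31 (exact two-sided permutation test p = 0.00794, the smallest that 5 against 5 can give, 0.0397 after Benjamini-Hochberg adjustment over 5 ratios). In HFSC the same ratio was 0.0697, 0.0532 and 0.0847 in Control and 0.240, 0.126 and 0.142 in eKO. The groups were again separate (log2 difference 1.25, exact two-sided permutation p = 0.1, the smallest that 3 against 3 can give, adjusted 0.25). The Dgat2 to Dgat1 ratio overlapped between genotypes in skin (log2 difference -0.21, exact permutation p = 0.516, adjusted 0.764) and in HFSC (-0.03, exact permutation p = 0.9). Awat2 relative to Awat1 also overlapped in skin (0.17, exact permutation p = 0.611, adjusted 0.764), and no ratio of these was formed in HFSC.

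**Figure D4:**
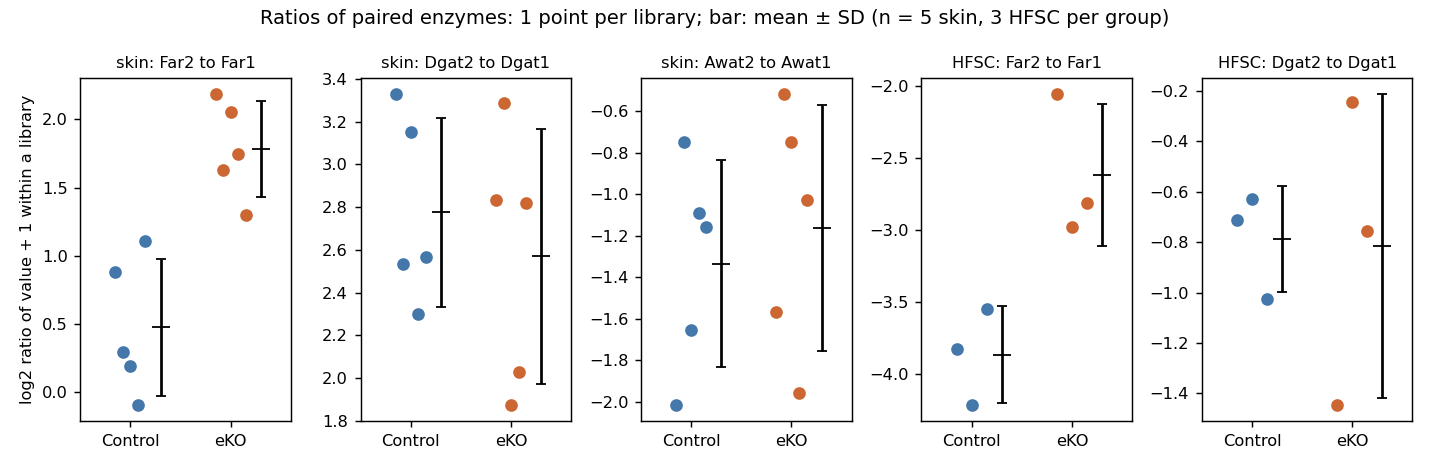
Log2 ratio of value + 1 for 2 related enzymes within each library (vertical axes, separate scales that do not start at 0), 1 point per library with mean and SD, Control blue and eKO orange, n = 5 per group in skin and 3 in HFSC. The eKO points of the Far2 to Far1 ratio lie above every Control point in both tissues, and the groups overlap for the Dgat2 to Dgat1 and Awat2 to Awat1 ratios.

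Levels between genes were compared per kilobase of the exon union of GENCODE M21; 2 genes overlap here where the ranges of their libraries do. Dgat2 led in skin in both genotypes, at 1415 ± 658 normalised read counts per kb (SD, n = 5) in Control and 1555 ± 620.4 in eKO, with no overlap with the next gene, Plin2 (302 ± 128 and 516 ± 94.5). In Control skin the next 8 genes, from Plin2 to Soat1 (93.9 ± 29.0), overlapped each with its neighbour in the order Plin2, Dgat1, Far2, Cidea, Awat1, Far1, Pparg and Soat1. Awat2 was last at 34.0 ± 13.9 and separate from them. In eKO skin Far2 (476 ± 114) and Cidea (468 ± 86.9) followed Plin2, with overlap between neighbours, and Awat2 was again last (70.8 ± 30.4). Soat1 had a mean (257 ± 150) slightly above that of Dgat1 (250.4 ± 50.03), which rests on eKO replicate 4: Soat1 was above Dgat1 in 2 of the 5 libraries, and without that replicate their means were 192 and 245.

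The order in HFSC was different. Far1 was near the top, and Dgat2, which led in skin, came after Dgat1, Far1 and Plin2 in both genotypes. In Control HFSC Dgat1 (214 ± 45.0 per kb, SD, n = 3), Far1 (186 ± 21.8) and Plin2 (162 ± 13.1) overlapped as neighbours, and Dgat2 (121 ± 6.87) followed separately. Soat1 (16.2 ± 1.29), Far2 (13.96 ± 2.05) and Awat2 (10.2 ± 3.21) came next with overlap, then Cidea (4.84 ± 2.02), which overlapped Awat2, and last, separate from Cidea, Awat1 (1.20 ± 1.10) and Pparg (0.701 ± 0.713). In eKO HFSC Soat1 (139 ± 10.47) was between Dgat1 (176 ± 43.9), which it overlapped, and Dgat2 (97.8 ± 17.0), which it did not. Plin2 was first there at 249.5 ± 15.8 and overlapped Far1 (242 ± 47.7).

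To name genes that ran most like the 10 in skin, the log2 values of each gene were standardised over the 10 skin libraries and compared with the mean profile of the 10 genes. The 5 closest of the other genes were Pgrmc1, a membrane progesterone receptor component, Rassf3, Aco1, the cytosolic aconitase, Dtx4 and Elovl5, a fatty acid elongase, with mean absolute differences of 0.248, 0.261, 0.263, 0.273 and 0.281 SD. Among the 10 genes themselves Awat1 (0.265), Far2 (0.290), Cidea (0.297) and Plin2 (0.313) were closest to their mean, and Dgat2 (0.760) and Far1 (0.869) were farthest. The profile contains the genotype difference, and none of the 5 closest genes was called in skin (adjusted p 0.0741 to 0.179) or in HFSC (0.194 to 0.690). Their log2 fold changes were 0.43 to 0.79 in skin, and in HFSC they ran from -0.35 for Rassf3 to 0.38 for Aco1.

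Genes that work beside the 10 were taken from 6 lists. The list that supplies acyl chains to sebum (19 genes: desaturases, elongases, activating and binding proteins) had 2 of 19 tested genes higher and 0 lower in skin, with a median log2 fold change of 0.52, and 12 of 17 higher and 0 lower in HFSC, with a median of 0.86. Of all genes tested, 0.229% were called higher and 0.145% lower in skin, and 10.7% and 8.74% in HFSC. In HFSC 15 of the 17 were at 10 or more in all 6 libraries, and 10 of these were called higher; the other 2 calls, Cd36 and Fabp5, were of genes below 10 in at least 1 Control library. The 2 in skin were the elongases Elovl6 and Elovl4. Elovl6, which lengthens palmitate, was at 4043 ± 599.6 in Control and 14431 ± 4102 in eKO skin (SD, n = 5; log2 fold change 1.79 ± 0.21 SE, adjusted p = 0.00960). Elovl4, which makes very long chains, was at 7995 ± 1706 and 18117 ± 3364 (1.19 ± 0.19, adjusted p = 0.0383).

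The 4 genes of this list with the smallest adjusted p in HFSC were Scd1, Fa2h, Elovl3 and Fabp5. Scd1, the stearoyl-CoA desaturase of sebocytes and fat, was at 1764 ± 80.2 in Control and 7602 ± 939 in eKO HFSC (SD, n = 3; log2 fold change 2.10 ± 0.10 SE, adjusted p = 3.32e-08). Fa2h, a fatty acid hydroxylase, was at 142 ± 4.43 and 834 ± 34.2 (2.55 ± 0.15, adjusted p = 1.62e-07). Elovl3, an elongase of sebocytes and brown fat, was at 32.0 ± 10.9 and 449 ± 104 (3.80 ± 0.30, adjusted p = 2.85e-06). Fabp5, a fatty acid binding protein of epidermis and endothelium, was at 15.5 ± 6.80 (lowest Control library 8.42) and 312 ± 74.8 (4.31 ± 0.38, adjusted p = 7.75e-06). In skin these 4 genes did not pass, with log2 fold changes of 0.90 (adjusted p = 0.349) for Scd1, 1.83 (0.0560) for Fa2h, 1.68 (0.0560) for Elovl3 and 1.16 (0.197) for Fabp5. Scd1, Fa2h and Elovl3 are also among the 9 sebaceous markers summed above.

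The glycerolipid list, the steps that lead to diacylglycerol (12 genes), had 0 of 11 tested genes called in skin (median -0.01) and in HFSC 2 of 10 higher and 1 lower (median -0.09), beside 19.4% of all genes called there in either direction. In HFSC Lpin2, a phosphatidate phosphatase, fell from 343 ± 29.9 to 208 ± 31.2 (-0.72 ± 0.18, adjusted p = 0.0137). Gpam, the mitochondrial glycerol-phosphate acyltransferase, rose from 501 ± 139.9 to 815 ± 97.0 (0.73 ± 0.19, adjusted p = 0.0158), and Agpat3, an acyltransferase for lysophosphatidate, rose from 187 ± 48.4 to 311 ± 22.2 (0.76 ± 0.21, adjusted p = 0.0212). The list of other droplet coat and assembly genes (14 genes) had 0 of 13 called in skin (median 0.16) and 0 of 7 in HFSC (median -0.06). The relatives of the ester-forming enzymes (6 genes) had 0 of 3 called in skin (median 0.05), and in HFSC only Tmem68 was tested (0.10, adjusted p = 0.750).

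Lipolysis and ester hydrolysis genes (11 genes) had 0 of 9 called in skin (median 0.39) and 3 of 8 higher in HFSC (median 0.19), beside 10.7% of all genes called higher there. Of the 3, Lpl passed the filter only through its eKO libraries, which leaves 2 called of the 7 genes at 10 or more in all 6 libraries. Lpl, the lipoprotein lipase of fat, muscle and endothelial surfaces, was at 1.40 ± 2.43 in Control, with 2 of 3 libraries at 0, and at 26.1 ± 11.6 in eKO HFSC (3.89 ± 0.97, adjusted p = 0.0142), a fold that depends on the added 1. Abhd5, the activator of adipose triglyceride lipase, rose from 635 ± 67.9 to 849 ± 41.7 (0.42 ± 0.12, adjusted p = 0.0316), and Nceh1, a cholesteryl ester hydrolase, rose from 74.6 ± 20.9 to 141 ± 22.2 (0.93 ± 0.28, adjusted p = 0.0349).

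The partners of PPARG and regulators of sebocytes (17 genes) had 0 of 17 called in skin (median 0.10) and in HFSC 6 of 15 higher and 1 lower (median 0.42), beside 10.7% and 8.74% of all genes. Among the 13 at 10 or more in all 6 HFSC libraries, 4 were called higher and 1 lower; the other 2 calls were Cebpb and Gata6. Mc5r, the melanocortin receptor of sebocytes, rose in HFSC from 26.9 ± 9.48 to 150.2 ± 55.5 (2.43 ± 0.37, adjusted p = 6.30e-04). Cebpa, a transcription factor that acts with PPARG in fat and sebocytes, rose from 208 ± 23.2 to 516 ± 127 (1.28 ± 0.20, adjusted p = 6.92e-04). Lrig1, a marker of stem cells of the upper follicle, rose from 717 ± 5.23 to 1002 ± 84.2 (0.48 ± 0.11, adjusted p = 0.0112), and Prdm1, known from sebaceous and differentiating epidermal cells, rose from 37.8 ± 20.6 to 114.7 ± 29.4 (1.69 ± 0.41, adjusted p = 0.0126). Over all genes tested the medians were 5.9e-05 in skin and -0.03 in HFSC. The other cell types whose sums are given above differed between the same HFSC libraries, and their part in these list counts was not tested.

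**Figure D5:**
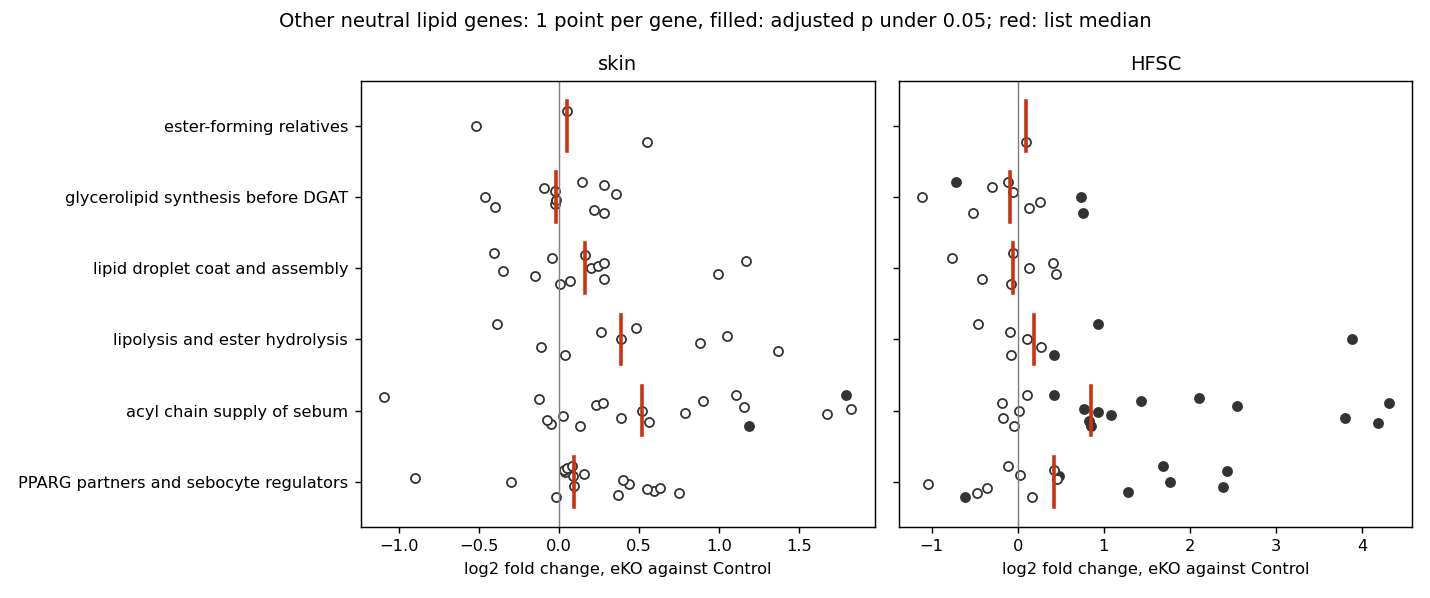
Log2 fold change of eKO against Control (horizontal axis, log2(value + 1) scale, different ranges for skin and HFSC) for the tested genes of the 6 lists, 1 point per gene; filled points passed the limma adjusted threshold of 0.05 and red lines mark list medians. Filled points in skin are the 2 elongases Elovl6 and Elovl4, and in HFSC the acyl chain list has 12 filled points, all to the right of 0.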

How the data were processed

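Per the submitters' processing notes, the build was GRCm39; featureCounts and DESeq2 are named for skin. The deposited values are a signal: gene read counts that the authors divided by 1 size factor per library, per the values themselves (100% were whole multiples of a step, within 0.01). Treatment of strand and multiply aligned reads is not given in the sources used here. Symbols were matched through GENCODE M21. The members and lists were chosen with earlier results of these data known. limma (3.58.1, trended prior) was run per tissue on log2(value + 1). Genes entered if 5 skin or 3 HFSC libraries reached 10. Adjusted p-values (Benjamini-Hochberg, over all genes tested) under 0.05 were called; the code was tested on simulated data. As alternatives, edgeR (4.0.16) and DESeq2 (1.42.0) were run on reads recovered from the skin table, together with other pseudocounts, filters, scalings, covariates and libraries left out. Named were all 10 members, Grk2, up to 4 called genes per list and tissue by smallest adjusted p, and the 5 genes nearest to the members' skin profile. Skin replicates were numbered in order of deposition and HFSC replicates by their titles. Intervals are from limma and reflect the spread between libraries. Limits from a count of 0 (3 reads) cover counting error only.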

Additional observations from a re-analysis of the deposited data

Results flagged for a closer look

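Of 68 groups of 5 skin libraries examined, 5 had 1 library far from the other 4; chance alone would give about 3.4. Among the 10 genes these were Far1 at 1230.1 and Soat1 at 5075, both in skin eKO replicate 4. The same library held the high value of Elovl3 (3197) and of Fabp5 (1952). Fabp5 was also high in skin Control replicate 4 (649.7).

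The genotype effect differed between tissues, by the limma test of the difference, for Soat1 (log2 fold change larger in HFSC by 1.73, adjusted p = 0.0264), Fabp5 (3.16, adjusted p = 0.00345), Elovl3 (2.13, adjusted p = 0.0162), Lpl (3.50, adjusted p = 0.0395) and Cebpa (0.91, adjusted p = 0.0330). Lpl was tested in HFSC only because its eKO libraries passed the filter, with 2 of 3 Control libraries at 0, so its fold depends on the added 1. For Lpin2 the difference was -1.003 (adjusted p = 0.00410), with 0.28 in skin and -0.72 in HFSC. Skin and HFSC also differ in extraction and library kits and perhaps in age, which cannot be told apart from tissue.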

How the results depend on the processing

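In skin, the 62 genes called became 37 without the filter on low values, 32 with library size scaling, 656 with DESeq2, 148 with the hair matrix score as a covariate, 0 without both libraries low in Y-linked genes, and 10 to 57 when 1 library was left out; the causes were not tested. Of the 10 genes described, 2 were called in skin, 1 with library size scaling, 3 with DESeq2, 0 without both of those libraries and 0 to 2 with 1 library left out. In HFSC, leaving out 1 library gave 1519 to 2620 genes (2673 with all) and 3 to 5 of the 10. In such a fit the filter asked only for as many libraries as the smaller group still held. The fit with 5 called, without eKO replicate 2, therefore tested 9 of the 10 genes, against 8 with all libraries. Library size scaling split the HFSC calls into 1271 higher and 1537 lower, against 1468 and 1205. The tissue difference was called for 484 to 896 genes (743 with all) and 0 to 2 of the 10. Leaving out 1 library moved the skin Awat2 to Awat1 ratio difference over -0.00081 to 0.37, the HFSC Dgat2 to Dgat1 ratio difference over -0.31 to 0.29, and the skin Far2 to Far1 ratio difference over 1.16 to 1.46. Leave-one-out log2 fold changes also turned sign for Dgat2 in skin (-0.016 to 0.38, negative without Control replicate 4 or eKO replicate 1), Far1 in skin (-0.015 to 0.13, negative without Control replicate 5 or eKO replicate 4) and the tissue difference of Plin2 (-0.42 to 0.034, positive without skin Control replicate 4). Over the genes described, 393 alternative values kept direction and side of the threshold, 26 lost the call, 4 gained it and 5 changed sign.

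HFSC replicate numbers did not pair the libraries: same-numbered deviations correlated at -0.060, -0.018 and -0.026 across genes. With the replicate block, 2696 genes and 5 of the 10 were called, Far1 being added (adjusted p = 0.0380). The count tests edgeR and DESeq2 were not run on HFSC, because in 2 columns the smallest step is so close to 1 that the recovery of reads could not be checked, and edgeR was not run for the tissue difference. Depth limits Awat1, Pparg and Cidea in HFSC, which were at 8 or fewer normalised read counts in every Control library.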
